A study of Drosophila melanogaster with 16 samples.

Results

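The vacuolar H+-ATPase (V-ATPase) genes of Drosophila were described in larval neuroblasts (NBs), the neural stem cells of the fly brain, and in ganglion mother cells (GMCs), the daughters that divide once more to give neurons or glia. The members were all genes whose symbol in the deposited tables begins with Vha, which gave 33 of the 16364 genes counted. By the subunit each one encodes, 18 belong to the membrane sector V0, 13 to the catalytic sector V1 and 2 encode accessory proteins. By what is known of their expression in the fly, 16 were classed as ubiquitous and 15 as tissue-restricted, and 2 (Vha100-5 and VhaM9.7-a) were left unclassified.

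The V-ATPase is a rotary pump that acidifies endosomes, lysosomes and other compartments. The cytoplasmic V1 sector hydrolyses ATP at its A and B subunits and turns a central stalk, and the V0 sector carries protons across the membrane through a ring of c subunits that turns against subunit a. Subunit a also decides to which membrane the pump is sent, and several subunits have paralogs of narrower expression. In Drosophila the pump is needed for Notch receptor signalling from endosomes.

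Polyadenylated RNA was sequenced from 16 libraries. All of them came from flies carrying UAS-dcr2, ase-GAL4 and UAS-stinger::GFP, which the titles call wild type and in which the asense driver labels type I NBs with nuclear GFP. Type I NBs were sorted from the brains of wandering L3 larvae and kept in culture for 1.5, 3 or 5 h, during which they went on dividing, and a second sort then parted them from their newly born GMCs. NBs were sequenced in 3 libraries at each age, and GMCs in 3 libraries at 1.5 h, 2 at 3 h and 2 at 5 h. Whether replicates were cultured apart is not stated, so the p-values rest on library-to-library spread that may be technical alone. In such bulk samples, fewer cells of a type and less RNA per cell cannot be told apart.

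The libraries held 6899670 to 21207182 reads counted in genes. Levels are given as CPM, counts divided by the library size after TMM scaling, which assumes that most genes do not differ between libraries. Where genes are compared with one another, levels are given as CPM per kb of exon. A member is said to be higher, lower or called where the adjusted p of edgeR's quasi-likelihood test, fitted over all genes, was under 0.05. NB replicate 1 of 5 h stood apart from the other 5 h libraries on the first principal component. Its score was 38.7, against -79.0 and -66.1 for the other NB replicates and -65.1 and -68.2 for the GMC replicates of 5 h. It lay within the range of the NB libraries of 3 h (22.2, 55.5 and 37.9), and the reason was not tested. The count of called members at 5 h is therefore also given without NB replicate 1. Of the markers fitting the labels, all 4 for GMCs were higher in GMCs at 1.5 and 3 h and 3 of 4 at 5 h, and of 7 for NBs 5, 4 and 3 were lower in GMCs, dpn at every age. The NB markers ase (the gene whose enhancer drives GAL4) and wor went the other way at 3 h (1.38 and 0.75) and 5 h (1.71 and 1.92), being higher in GMCs. The 5 neuron markers were all detected in GMCs, with a summed level of 768 to 910 CPM against 197 to 310 CPM in NBs at 1.5 h and of 5181 to 5320 CPM against 363 to 650 CPM at 5 h. Of these neuron markers, 5 were higher at 1.5 h, 4 at 3 h and 1 at 5 h. That one, elav, made up nearly all of the 5 h sum in GMCs (5216 CPM on average), and the mean levels of the other 4 were 5.67 to 14.4 CPM in GMCs and 10.6 to 30.5 CPM in NBs of 5 h. Of 5 glia markers 3, 3 and 2 were higher in GMCs, with sums of 299.5 to 426 CPM in NBs and 316 to 451 CPM in GMCs over all ages. Most of each glia sum was nrv2, with group means of 321 to 391 CPM. The group means of the other 4 glia markers were 0.653 to 21.5 CPM. Of 4 markers of type II lineages 2, 3 and 3 were higher in GMCs, with sums of 9.90 to 21.9 CPM in NBs and 31.1 to 83.2 CPM in GMCs. Of 4 tested hemocyte and fat body markers, 1 was lower in GMCs at 3 h and 2 at 5 h. Summed over all 5 such markers, levels were 6.02 to 8.64 CPM in NBs and 4.62 to 6.83 CPM in GMCs of 1.5 h. They were 15.9 to 85.1 and 63.8 to 69.1 CPM at 3 h, and 12.1 to 37.9 and 4.96 to 5.91 CPM at 5 h. No neuron, glia, type II, hemocyte or fat body marker was at 0 in every library of a group, and their part in the results below was not tested.

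Where a V-ATPase message differed between the cell types it was mostly lower in GMCs, and more genes were lower at the later ages. Of the 33 members, 24 had enough counts to be tested. At 1.5 h, 7 were lower and 2 higher in GMCs, where 8.97% of all tested genes were lower and 8.59% were higher. At 3 h, 10 were lower and 0 higher, against 10.5% and 10.2% of all genes. At 5 h, 17 were lower and 0 higher, against 14% and 14.8% of all genes. No member was higher at 3 or 5 h at an unadjusted p under 0.05 either (0 by edgeR), and DESeq2 called 0 higher and 12 and 18 lower at those ages. Without NB replicate 1, 23 members were tested at 5 h, 17 were lower and 1, Vha36-3, was higher. The count at 3 h was less firm, with 6 members lower when GMC replicate 2 was left out. The libraries of GMCs lay wholly below those of NBs for 9, 17 and 18 of the 24 tested members and wholly above for 2, 3 and 1, against 22.4%, 23% and 23.1% of all tested genes below and 20.3%, 27.1% and 24.8% above. The median log2 fold change of the tested members was -0.25, -0.73 and -1.17 at 1.5, 3 and 5 h, beside 0.04, 0.07 and -0.12 for all genes.

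**Figure D1:**
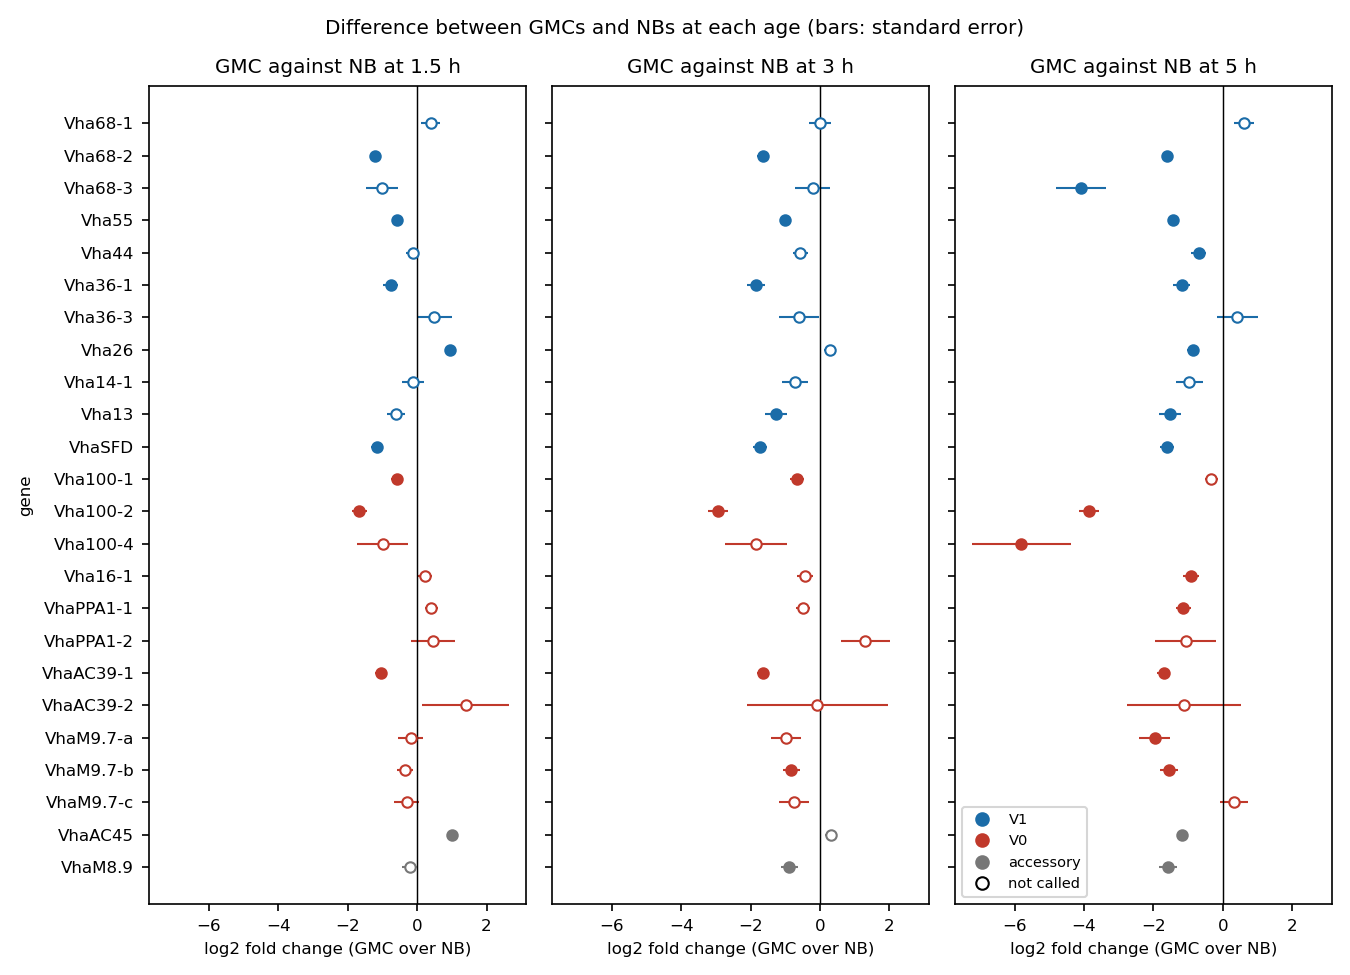
The log2 fold change of GMCs over NBs is plotted for the 24 tested V-ATPase genes at 1.5, 3 and 5 h, with bars for the standard error and filled points for genes past an adjusted p of 0.05. Filled points left of 0 increase from 7 at 1.5 h to 10 at 3 h and 17 at 5 h, in both V1 (blue) and V0 (red).

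Per kb of exon, with the exons of all transcripts of a gene joined, the same message stood above all others in every group. Vha16-1, which encodes the c subunit of the proton-carrying ring, had 386 ± 62.1 CPM per kb in NBs of 1.5 h (SD, n = 3), and the next gene, Vha26 (subunit E of the V1 stalk), had 101 ± 8.48 CPM per kb. VhaM8.9, Vha55, VhaAC39-1 and Vha68-2 followed between 96.8 and 80.9 CPM per kb, and neighbours in that order overlapped between libraries. Vha44, which encodes subunit C, was by this measure the lowest of the genes that are alone in serving their subunit, at 16.8 ± 1.82 CPM per kb. That place rests on the exon length used, 4023 bases for Vha44 against 943 for Vha13. Before division by length, Vha44 was at 67.6 CPM and Vha13 at 35.9 CPM in NBs of 1.5 h. In GMCs of 5 h, Vha16-1 was again first with 237 ± 41.5 CPM per kb and Vha26 second with 88.5 ± 13.8 CPM per kb (SD, n = 2), and their libraries did not overlap with each other or with those of Vha55, which came next.

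**Figure D2:**
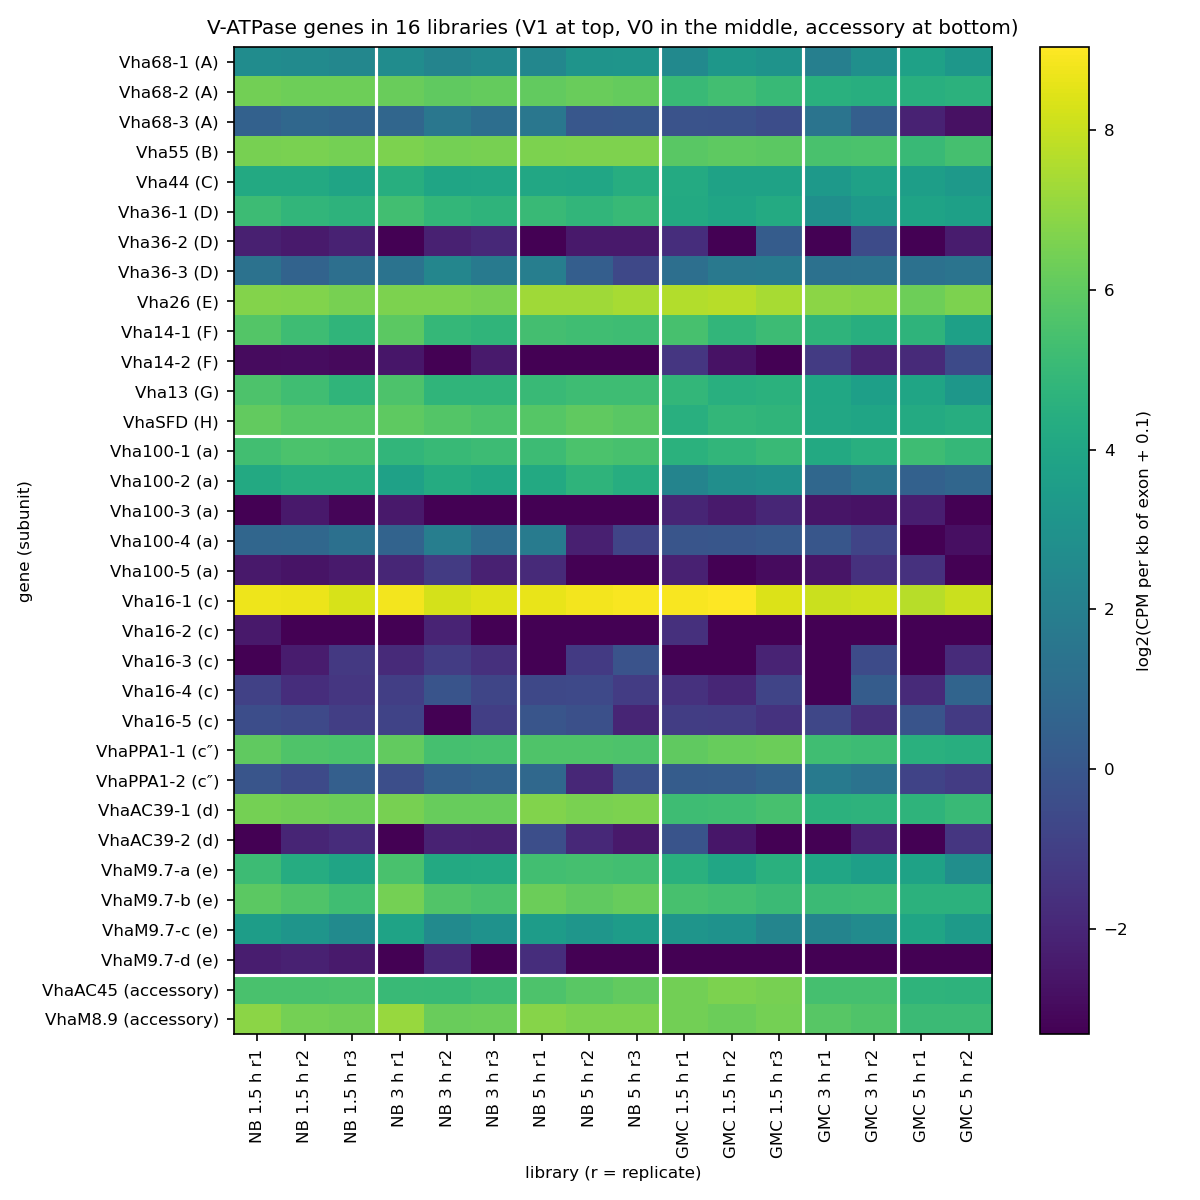
Colours give the level of each of the 33 genes in each of the 16 libraries, as log2 of CPM per kb of exon with 0.1 added, with the subunit in brackets and white lines between groups of libraries and between V1, V0 and accessory genes. Vha16-1 is the brightest row in every library, and the genes too low to test (Vha36-2, Vha14-2, Vha100-3, Vha100-5, Vha16-2 to Vha16-5 and VhaM9.7-d) are among the darkest.

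Among the V1 genes, the broadly expressed catalytic subunit gene Vha68-2 (FBgn0263598, chromosome arm 2L, 12974322 to 12978607, in the release 6 coordinates that the deposited tables share with the Ensembl annotation) was lower in GMCs at every age in all 23 alternative fits. In NBs it was at 233, 218 and 219 CPM at 1.5 h, 207, 182 and 188 CPM at 3 h and 186, 205 and 194 CPM at 5 h. In GMCs it was at 92.4, 107 and 90.02 CPM, 63.9 and 58.9 CPM and 61.1 and 68.02 CPM at the same ages. Every GMC library lay below every NB library of its age. The log2 fold change was -1.21 ± 0.13 (SE) at 1.5 h, -1.65 ± 0.16 at 3 h and -1.60 ± 0.15 at 5 h (edgeR adjusted p = 3.64e-05, 4.25e-06 and 2.19e-06), a level 2.31-fold, 3.14-fold and 3.02-fold lower in GMCs.

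Vha55, the gene of the B subunit that pairs with A in the ATP-hydrolysing head, was also lower in GMCs at all ages, by less at first. NBs had 256, 259.7 and 242 CPM at 1.5 h and 272, 284 and 276 CPM at 5 h, and GMCs had 162, 177 and 170.4 CPM and 91.02 and 116 CPM. The groups did not overlap at either age or at 3 h, when NBs had 266, 243 and 250.5 CPM and GMCs 124 and 127 CPM. The log2 fold change went from -0.58 ± 0.13 (SE) at 1.5 h through -1.01 ± 0.15 at 3 h to -1.42 ± 0.15 at 5 h (edgeR adjusted p = 0.0058, 0.000217 and 5.61e-06). The change of the difference from 1.5 to 5 h was -0.84 ± 0.20 (edgeR adjusted p = 0.0102), and did not pass without GMC replicate 1 of 5 h (-0.67, edgeR adjusted p = 0.084).

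VhaSFD encodes subunit H, which in yeast is needed for an active pump and silences V1 once it is released from V0. Its level was 189, 153 and 156 CPM for NBs against 61.8, 83.05 and 77.2 CPM for GMCs at 1.5 h, 179, 148 and 131 CPM and 48.04 and 44.04 CPM at 3 h, and 154, 182 and 169 CPM and 52.4 and 58.4 CPM at 5 h. The lowest NB library lay above the highest GMC library at each age. The log2 fold changes were -1.16 ± 0.16, -1.73 ± 0.19 and -1.60 ± 0.19 (SE, edgeR adjusted p = 0.000189, 2.34e-05 and 1.41e-05).

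The central stalk gene Vha36-1 (subunit D) was lower in GMCs at all ages. Its levels were 38.3, 29.6 and 26.7 CPM for NBs against 19.5, 16.2 and 20.2 CPM for GMCs at 1.5 h, 42.1, 31.3 and 27.6 CPM for NBs against 7.54 and 11.01 CPM for GMCs at 3 h and 35.6, 29.5 and 33.6 CPM and 15.2 and 13.9 CPM at 5 h. The cell types did not overlap at any age. At 3 h the log2 fold change was -1.83 ± 0.26 (SE, edgeR adjusted p = 0.000153). At 1.5 h it was -0.76 ± 0.21 (edgeR adjusted p = 0.0202), a call that needed NB replicate 1 and GMC replicates 1 and 2 (edgeR adjusted p = 0.111, 0.0519 and 0.0918 when each was left out), and at 5 h it was -1.18 ± 0.25 (edgeR adjusted p = 0.0019).

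Vha13, the gene of subunit G in the outer stalk, was at 45.4, 36.3 and 25.96 CPM for NBs against 27.5, 20.8 and 22.1 CPM for GMCs at 1.5 h, 45.5, 25.6 and 25.7 CPM for NBs against 15.3 and 11.9 CPM for GMCs at 3 h and 30.9, 35.00 and 35.1 CPM and 14.7 and 8.68 CPM at 5 h. The libraries overlapped at 1.5 h and were apart later. It did not pass at 1.5 h (-0.61, edgeR adjusted p = 0.13, or 0.0487 with only the groups compared) and was lower at 3 h (-1.26, edgeR adjusted p = 0.0097) and at 5 h (-1.52, edgeR adjusted p = 0.00181). Its calls at both later ages were lost without GMC replicate 2 of that age (edgeR adjusted p = 0.123 and 0.0522).

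Vha44 encodes subunit C, which in yeast leaves the complex when the pump is taken apart. Its levels were 71.9, 71.8 and 59.2 CPM for NBs against 74.4, 55.2 and 56.4 CPM for GMCs at 1.5 h, 87.2, 61.04 and 64.5 CPM for NBs against 40.5 and 54.5 CPM for GMCs at 3 h and 67.96, 64.8 and 82.5 CPM and 49.05 and 40.04 CPM at 5 h. The difference at 5 h was the smallest called at that age (log2 fold change -0.69 ± 0.22, edgeR adjusted p = 0.0261). The call was lost without NB replicate 3 or either GMC replicate (edgeR adjusted p = 0.0847, 0.0585 and 0.225), with scaling that left out CR43283, an abundant non-coding RNA of GMCs (0.0569), and with the trend on gene length removed (0.0597). Vha14-1, the gene of subunit F, was at 35.2, 23.9 and 18.1 CPM for NBs against 28.7, 18.5 and 23.6 CPM for GMCs at 1.5 h, 39.9, 19.96 and 17.8 CPM for NBs against 17.3 and 14.2 CPM for GMCs at 3 h and 26.8, 25.2 and 24.4 CPM and 17.5 and 8.56 CPM at 5 h, and NB replicate 1 of 1.5 h and of 3 h was above its fellow replicates. It was called at no age, with log2 fold changes of -0.12 ± 0.32, -0.72 ± 0.38 and -0.96 ± 0.38 (SE). It was called lower at 5 h by DESeq2 (adjusted p = 0.0408) and by edgeR without NB replicate 1 of 3 h or GMC replicate 1 of 5 h (0.0284 and 0.036).

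Vha26, the gene of the outer stalk subunit E, was higher in GMCs at the earliest age, when 4 other V1 genes were lower. It was at 312, 304 and 266 CPM in NBs and at 579, 619 and 495 CPM in GMCs of 1.5 h, all GMC libraries being higher (0.94 ± 0.14, SE, edgeR adjusted p = 0.000434). At 3 h NBs had 288, 282 and 267 CPM and GMCs 351 and 328 CPM, which did not pass (0.28, edgeR adjusted p = 0.235) although the libraries did not overlap. At 5 h the order was turned, with 455, 447 and 509.6 CPM in NBs and 230.3 and 288 CPM in GMCs (-0.86 ± 0.17, edgeR adjusted p = 0.000887). The difference moved by -1.80 ± 0.22 on the log2 scale between 1.5 and 5 h (edgeR adjusted p = 0.000191).

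**Figure D3:**
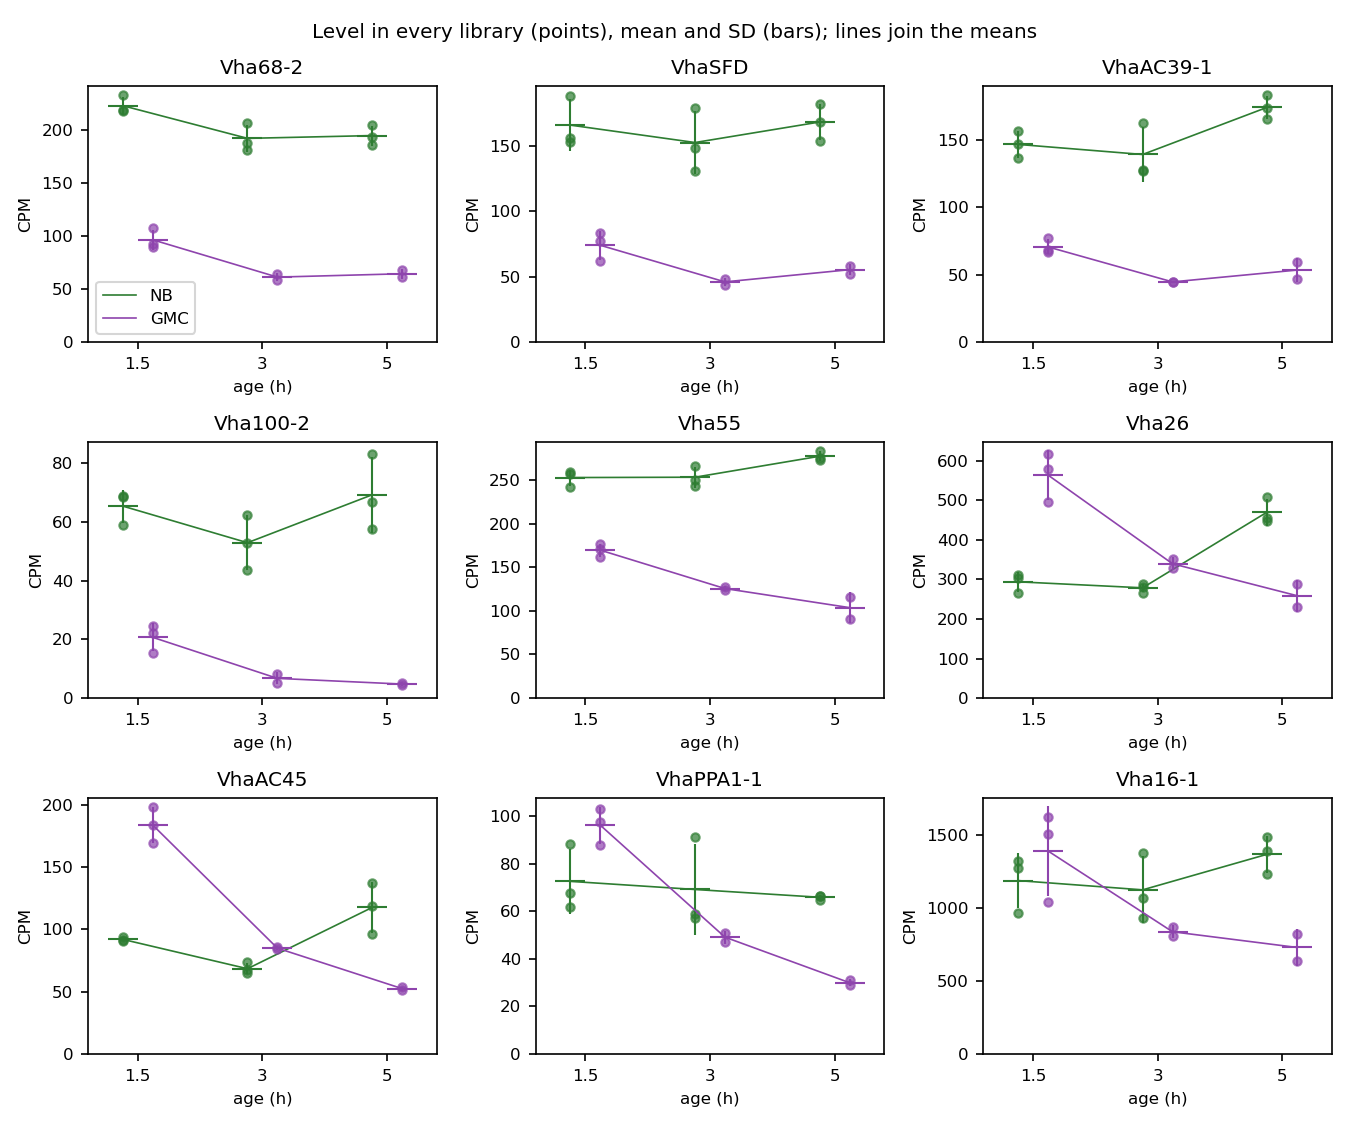
Points give the CPM of 9 V-ATPase genes in every library of NBs (green) and GMCs (purple) at 1.5, 3 and 5 h, with the mean, the SD and lines through the means. Vha68-2, VhaSFD, VhaAC39-1, Vha100-2 and Vha55 are lower in all GMC libraries at each age, while Vha26 and VhaAC45 start higher in GMCs at 1.5 h and end lower at 5 h.

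In the V0 sector, the largest difference among genes above 10 CPM in NBs was that of Vha100-2, one of the genes of subunit a (chromosome arm 3R, 18390323 to 18399169). NBs had 58.8, 68.7 and 68.4 CPM at 1.5 h, 43.6, 62.2 and 52.7 CPM at 3 h and 57.5, 83.2 and 66.7 CPM at 5 h. GMCs had 15.3, 22.2 and 24.5 CPM, 5.27 and 8.14 CPM and 4.35 and 5.19 CPM. The groups were apart at every age, and GMC levels were lower at each later age, though the step from 3 to 5 h did not pass (edgeR adjusted p = 0.194), while NB levels of different ages overlapped. The log2 fold change was -1.66 ± 0.22, -2.94 ± 0.28 and -3.86 ± 0.30 (SE, edgeR adjusted p = 0.000123, 5.13e-06 and 3.12e-07), which is 3.16-fold, 7.67-fold and 14.5-fold lower in GMCs. Without NB replicate 1 the value at 5 h was -3.98.

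VhaAC39-1 encodes subunit d, which couples the stalk to the c ring. It was at 157, 147 and 137 CPM for NBs against 66.8, 68.3 and 76.9 CPM for GMCs at 1.5 h, 163, 128 and 127 CPM and 44.5 and 44.9 CPM at 3 h, and 183, 166 and 174 CPM and 47.1 and 59.8 CPM at 5 h. All GMC libraries lay below all NB libraries. The log2 fold changes were -1.05 ± 0.15, -1.64 ± 0.18 and -1.71 ± 0.17 (SE, edgeR adjusted p = 0.000198, 1.63e-05 and 3.54e-06).

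The most abundant gene of each proton-ring subunit was called at 5 h and not before in the fit reported. Vha16-1 was at 1320.4, 1275 and 969 CPM for NBs against 1509.9, 1621 and 1042 CPM for GMCs at 1.5 h, which overlapped (log2 fold change 0.23 ± 0.20, edgeR adjusted p = 0.494). At 3 h it was at 1377, 929 and 1067 CPM and 806 and 869 CPM (-0.42, edgeR adjusted p = 0.208). At 5 h the levels were 1231, 1390.0 and 1483 CPM and 639 and 820.2 CPM without overlap (-0.91 ± 0.23, edgeR adjusted p = 0.00698), a call lost without GMC replicate 1 (edgeR adjusted p = 0.0985). VhaPPA1-1, the gene of the related c″ subunit, went from 88.1, 67.6 and 62.00 CPM for NBs against 87.9, 97.6 and 103 CPM for GMCs at 1.5 h (0.41, edgeR adjusted p = 0.149) through 91.4, 57.2 and 58.8 CPM and 51.1 and 47.2 CPM at 3 h (-0.49, edgeR adjusted p = 0.113) to 66.6, 66.4 and 64.7 CPM and 31.05 and 28.9 CPM at 5 h (-1.13 ± 0.22, edgeR adjusted p = 0.000887). From 1.5 to 5 h its difference changed by -1.54 ± 0.28 (edgeR adjusted p = 0.00241). With DESeq2, VhaPPA1-1 was also lower at 3 h (adjusted p = 0.0473).

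Subunit e, a small membrane protein, is encoded by VhaM9.7 genes. VhaM9.7-b was at 74.8, 61.1 and 46.9 CPM for NBs against 52.8, 47.98 and 42.3 CPM for GMCs at 1.5 h, 106, 62.4 and 55.3 CPM for NBs against 41.3 and 42.8 CPM for GMCs at 3 h and 93.7, 79.9 and 87.6 CPM and 30.04 and 29.5 CPM at 5 h. It was lower in GMCs at 3 h (-0.82 ± 0.25, edgeR adjusted p = 0.0297) and at 5 h (-1.55 ± 0.26, edgeR adjusted p = 0.000339). The call at 3 h rested on NB replicate 1 and on both GMC replicates: it was lost without any one of them (edgeR adjusted p = 0.109, 0.181 and 0.135), and with only the groups compared (0.108). VhaM9.7-a, of the same subunit, was at 25.00, 14.3 and 10.7 CPM for NBs against 16.5, 11.2 and 16.2 CPM for GMCs at 1.5 h, 32.2, 13.02 and 13.5 CPM for NBs against 11.1 and 8.92 CPM for GMCs at 3 h and 27.5, 30.2 and 28.01 CPM and 9.81 and 4.82 CPM at 5 h. It was called at 5 h (-1.96 ± 0.45, edgeR adjusted p = 0.00359), and not without GMC replicate 2 (edgeR adjusted p = 0.0772).

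The accessory genes differed from each other at the earliest age. VhaAC45, whose protein (ATP6AP1 in mammals) helps V0 to assemble, was at 91.7, 90.7 and 93.6 CPM for NBs against 169, 198 and 184 CPM for GMCs at 1.5 h, 1.996-fold higher in GMCs (1.00 ± 0.14, edgeR adjusted p = 0.000261). At 3 h it was at 67.1, 64.8 and 73.5 CPM and 84.02 and 85.9 CPM (0.31, edgeR adjusted p = 0.194). At 5 h it was at 96.4, 119 and 137 CPM in NBs and 53.7 and 51.4 CPM in GMCs, 2.24-fold lower in GMCs (-1.16 ± 0.17, edgeR adjusted p = 8.17e-05). The libraries of the cell types did not overlap at any age, and the called direction at 5 h was opposite to that at 1.5 h.

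VhaM8.9, called ATP6AP2 in the reference annotation and known in mammals as the prorenin receptor, was at 176, 129 and 120.4 CPM for NBs against 126, 113 and 130.3 CPM for GMCs at 1.5 h, 209, 109.5 and 112 CPM for NBs against 82.5 and 73.1 CPM for GMCs at 3 h and 165, 142 and 141 CPM and 50.1 and 49.7 CPM at 5 h. The libraries overlapped at 1.5 h (-0.21 ± 0.22, edgeR adjusted p = 0.581) and were apart later. At 5 h the log2 fold change was -1.58 ± 0.26 (edgeR adjusted p = 0.000254). Its value at 3 h (-0.88 ± 0.25, edgeR adjusted p = 0.0197) did not pass without NB replicate 1 or either GMC replicate (edgeR adjusted p = 0.0637, 0.0959 and 0.152) or with only the groups compared (0.0879).

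Counts for the sectors are given side by side, and the difference between sectors was not tested. Of 11 V0 genes tested, 3, 4 and 7 were lower in GMCs at 1.5, 3 and 5 h, and of 11 V1 genes 4, 5 and 8 were lower, with Vha26 higher at 1.5 h. The median log2 fold change was -0.30, -0.75 and -1.13 in V0 and -0.58, -0.72 and -1.18 in V1. The V0 median at 1.5 h was -0.02 without NB replicate 1, and at 3 h it was -0.48 without that age's NB replicate 1. Among V1 genes that are alone or dominant in their subunit at 5 h, differences ran from -0.69 (Vha44) to -1.60 (VhaSFD).

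Summed over genes, V0 messages at 1.5 h came to 1705 ± 225 CPM for NBs and 1745 ± 286 CPM for GMCs (SD over 3 libraries of each), and V1 messages to 1119 ± 85.8 CPM and 1059 ± 71.8 CPM. The sums overlapped at that age. Vha16-1 alone made up 1188 CPM of the V0 sum in NBs and 1391 CPM in GMCs, and the other V0 genes came to 479 to 548 CPM in NBs against 331 to 382 CPM in GMCs, without overlap. In V1, Vha26 made up 294 and 564 CPM, and the other genes came to 768 to 893 CPM against 487 to 509 CPM (both genes were set apart after their values were seen, so this is a description). At 5 h V0 came to 1946 ± 133 CPM for NBs (n = 3) against 978 ± 115.1 CPM for GMCs (n = 2), and V1 to 1301 ± 47.6 CPM and 601 ± 42.7 CPM. The sums of both sectors were then lower in every GMC library than in any NB library, as they were at 3 h.

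**Figure D4:**
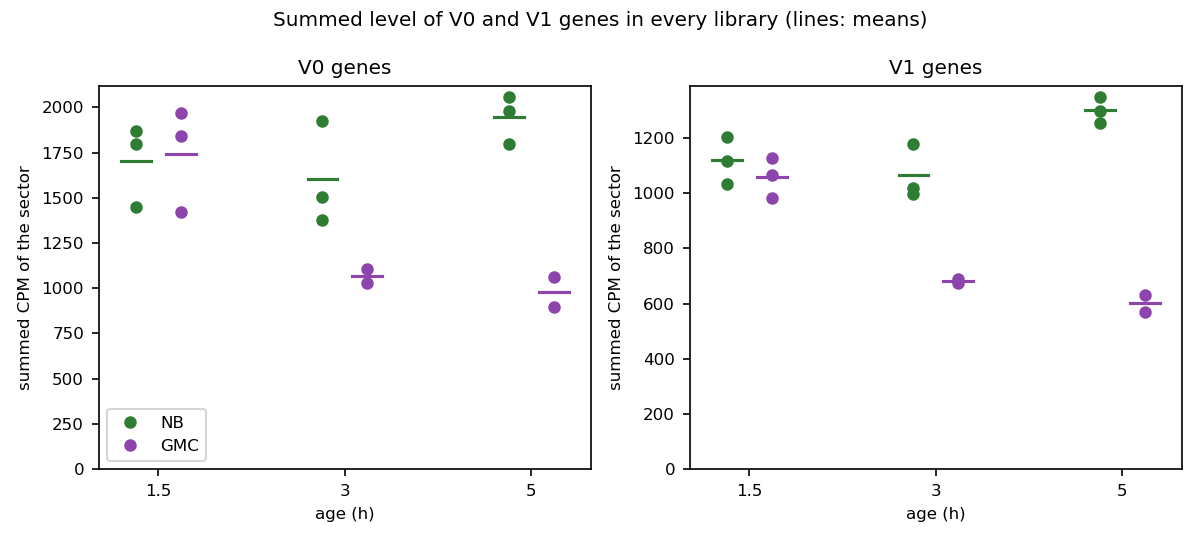
Each point is the summed CPM of the V0 genes (left) or V1 genes (right) in one library, with lines at the means, for NBs (green) and GMCs (purple) at 1.5, 3 and 5 h. The points of NBs and GMCs overlap at 1.5 h and are apart at 3 and 5 h, with GMC means of 978 CPM for V0 and 601 CPM for V1 at 5 h.

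Most called genes were ubiquitous ones, which were also 16 of the 24 tested. All 16 had enough counts, and 6, 9 and 14 of them were lower in GMCs at 1.5, 3 and 5 h, with medians of -0.28, -0.85 and -1.30. These are 37.5%, 56.25% and 87.5% of them, where 8.97%, 10.5% and 14% of all tested genes were lower. The 2 higher at 1.5 h, Vha26 and VhaAC45, were ubiquitous too. The 2 that were not called at 5 h were Vha14-1 and Vha68-1. The 3 h median was -0.50 without NB replicate 1. Of the 15 tissue-restricted genes, 7 had enough counts to be tested, and 1, 1 and 2 of them were lower, or 14.3%, 14.3% and 28.6%. They were Vha100-1 at 1.5 and 3 h, and Vha100-4 and Vha68-3 at 5 h. The medians of restricted genes were -0.30, -0.61 and -1.07, over the 7 that passed the filter only. Their 5 h median was -0.30 without NB replicate 1 and -0.47 without GMC replicate 1 of that age. Whether the 2 classes differ was not tested.

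The remaining 8 restricted genes, and Vha100-5, were too low to test. They were Vha100-3 (subunit a), Vha14-2 (F), Vha16-2, Vha16-3, Vha16-4 and Vha16-5 (c), Vha36-2 (D) and VhaM9.7-d (e). None exceeded 16 counts in a library, and the highest level was 1.42 CPM, of Vha36-2 in GMC replicate 3 of 1.5 h. Vha16-2 had 4 counts in all and was at 0 in 13 of 16 libraries, and antisense RNA genes overlap 84.5% of its exon length and 18.1% of that of Vha100-5, where the counting strand is not given. At these depths a count of 3 stands for 0.123 to 0.565 CPM, and differences between the cell types in these genes were not tested. Vha16-4 and Vha16-5 had at least 1 count in all but 1 library.

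The second c gene by level was Vha16-5 in NBs of 1.5 h. It was at 0.476, 0.401 and 0.288 CPM for NBs against 0.273, 0.257 and 0.178 CPM for GMCs at 1.5 h, 0.339, 0 and 0.287 CPM for NBs against 0.377 and 0.155 CPM for GMCs at 3 h and 0.624, 0.522 and 0.102 CPM and 0.607 and 0.241 CPM at 5 h. Vha16-1 held 99.3% to 99.9% of the c message per kb in every library. Vha14-2, the second F gene, was at 0.0476, 0.0573 and 0.0411 CPM for NBs against 0.478, 0.0855 and 0 CPM for GMCs at 1.5 h, 0.113, 0 and 0.144 CPM for NBs against 0.565 and 0.233 CPM for GMCs at 3 h and 0, 0 and 0 CPM and 0.303 and 0.965 CPM at 5 h. All of these values are of 10 counts or fewer.

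Shares between paralogs, computed from CPM per kb, differed between the cell types for subunit a. Vha100-1, known for its role at synapses in fly neurons, made up 65.8 ± 1.10% of the subunit a message in NBs and 79.2 ± 1.28% in GMCs of 1.5 h (SD over 3 libraries of each). At 3 h its share was 62.9 ± 4.47% in NBs (n = 3) and 87.1 ± 0.0988% in GMCs (n = 2), and at 5 h 64.8 ± 2.35% and 95.2 ± 0.496%. Every GMC library had a larger share of Vha100-1 than every NB library. The share of Vha100-2 was 31.1, 35.4 and 31.9% in the NB libraries and 3.54 and 5.01% in the GMC libraries of 5 h.

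As described above, Vha100-2 was lower in GMCs at each age, and Vha100-1 was higher at none. Vha100-1 was at 129, 152 and 141 CPM for NBs against 79.1, 91.1 and 109.9 CPM for GMCs at 1.5 h (-0.59 ± 0.17, edgeR adjusted p = 0.0215), and at 92.1, 105 and 118 CPM and 59.5 and 72.9 CPM at 3 h (-0.67 ± 0.19, edgeR adjusted p = 0.0207). Each of these calls was lost on leaving out single libraries, NB replicate 2 or 3 or GMC replicate 1 or 2 at 1.5 h (edgeR adjusted p = 0.06 to 0.109) and NB replicate 3 or either GMC replicate at 3 h (0.0544 to 0.235), and at 3 h also with only the groups compared (0.0617). At 5 h its levels, 118, 154 and 144 CPM in NBs and 119.8 and 100.2 CPM in GMCs, overlapped (-0.34 ± 0.19, edgeR adjusted p = 0.2).

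**Figure D5:**
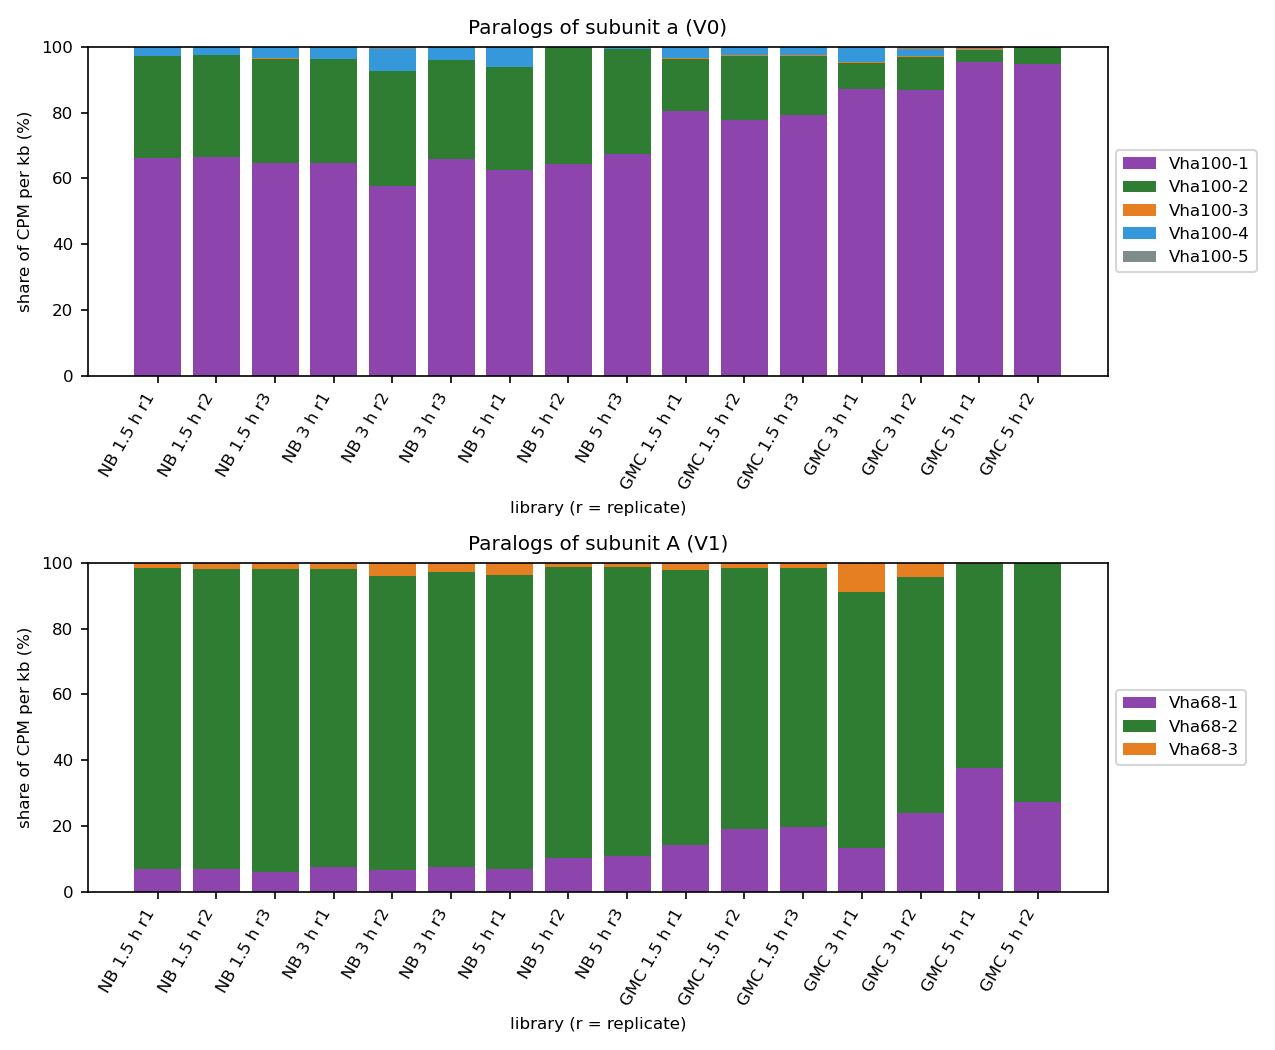
Stacked bars give, for each library, the share of CPM per kb that each paralog holds within subunit a (top) and subunit A (bottom). Vha100-1 fills 62.7% to 67.3% of subunit a in the NB libraries of 5 h and 94.9% to 95.6% in the GMC libraries, and Vha68-1 fills 6.80% to 10.9% of subunit A in the former and 27.4% to 37.5% in the latter.

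Within the catalytic subunit A, the share of Vha68-2 was 91.7 ± 0.514% in NBs and 80.7 ± 2.65% in GMCs of 1.5 h, and 88.7 ± 0.753% and 67.3 ± 7.30% at 5 h. Vha68-1, a second ubiquitous A gene, held 6.63 ± 0.485% and 17.6 ± 2.91% at 1.5 h, and 9.25 ± 2.16% and 32.5 ± 7.16% at 5 h. Its own level passed the test at no age, with log2 fold changes of 0.39 ± 0.27, 0.00 ± 0.31 and 0.61 ± 0.30 (SE, edgeR adjusted p = 0.369, 0.994 and 0.139), and at 3 h its sign turned with the scaling (-0.05 with median-ratio scaling). Its levels were 17.05, 16.04 and 13.99 CPM for NBs against 15.2, 24.8 and 21.6 CPM for GMCs at 1.5 h, 16.8, 12.7 and 15.4 CPM for NBs against 10.5 and 19.1 CPM for GMCs at 3 h and 13.7, 22.6 and 23.3 CPM and 35.8 and 24.96 CPM at 5 h. GMC libraries lay above those of NBs at 5 h only.

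Vha68-1 and Vha68-2 are closely related, and reads aligned to more than one place, 21.7% to 33.4% of each library, are listed apart from the gene counts. How much this took from each paralog was not tested, and their shares are uncertain to that extent.

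The restricted paralogs Vha68-3 and Vha100-4 were lower in GMCs of 5 h, on few counts. Vha68-3 was at 3.24, 4.07 and 3.66 CPM for NBs against 1.98, 1.88 and 1.60 CPM for GMCs at 1.5 h, 3.84, 7.02 and 5.10 CPM for NBs against 6.40 and 3.02 CPM for GMCs at 3 h and 6.97, 2.30 and 2.34 CPM and 0.303 and 0.121 CPM at 5 h. At 5 h that is 112 counts in 3 NB libraries against 4 in 2 GMC libraries, a ratio of rates of 17.6 (95% exact interval 6.67 to 65.6, counting error only), or 10.5 (3.85 to 40.4) without NB replicate 1. Vha100-4 was at 4.33, 4.47 and 6.09 CPM for NBs against 2.32, 2.39 and 2.76 CPM for GMCs at 1.5 h, 3.84, 10.2 and 5.46 CPM for NBs against 2.45 and 1.32 CPM for GMCs at 3 h and 9.26, 0.313 and 1.32 CPM and 0 and 0.121 CPM at 5 h, where no GMC library reached any NB library of its age. At 5 h there were 105 counts against 1, with a ratio of 65.8 (11.6 to 2625), or 15.003 (2.33 to 629) without NB replicate 1, which held 89 of the 105. The edgeR adjusted p was 0.000475 for Vha68-3 and 0.006 for Vha100-4, and the latter call was lost without GMC replicate 1 (edgeR adjusted p = 0.0733) and with only the groups compared (0.0588). At 1.5 and 3 h neither was called, but GMC libraries lay wholly below NB libraries for both at 1.5 h, where both passed when only the groups compared were fitted (edgeR adjusted p = 0.0312 for Vha68-3 and 0.0245 for Vha100-4). Vha100-4 at 3 h passed without NB replicate 1 of 5 h (-1.87, edgeR adjusted p = 0.018).

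The other 4 restricted genes tested did not pass between GMCs and NBs at any age. Vha36-3, a second subunit D gene, was at 3.19, 1.83 and 2.80 CPM for NBs against 2.87, 4.02 and 4.18 CPM for GMCs at 1.5 h, 3.28, 6.55 and 4.31 CPM for NBs against 3.01 and 3.18 CPM for GMCs at 3 h and 4.89, 1.57 and 0.713 CPM and 3.03 and 3.38 CPM at 5 h. Its log2 fold change at 5 h of 0.42 ± 0.59 (edgeR adjusted p = 0.627) became 1.48 without NB replicate 1 (edgeR adjusted p = 0.0331). NB replicate 1 held the highest level of Vha36-3, Vha68-3 and Vha100-4 among the NBs of 5 h. VhaM9.7-c, a further e gene, was at 9.90, 7.22 and 5.02 CPM for NBs against 7.30, 6.59 and 4.09 CPM for GMCs at 1.5 h, 12.1, 4.99 and 6.61 CPM for NBs against 3.96 and 5.27 CPM for GMCs at 3 h and 9.47, 7.52 and 9.57 CPM and 13.1 and 9.04 CPM at 5 h (0.33 ± 0.40 at 5 h, edgeR adjusted p = 0.579). VhaPPA1-2, the second c″ gene, was at 0.571, 0.401 and 0.823 CPM for NBs against 0.751, 0.770 and 0.978 CPM for GMCs at 1.5 h, 0.452, 0.858 and 1.006 CPM for NBs against 2.261 and 1.71 CPM for GMCs at 3 h and 1.14, 0.104 and 0.509 CPM and 0.303 and 0.241 CPM at 5 h. VhaAC39-2, the second d gene, was at 0, 0.172 and 0.247 CPM for NBs against 1.02, 0.0855 and 0 CPM for GMCs at 1.5 h, 0, 0.156 and 0.144 CPM for NBs against 0 and 0.155 CPM for GMCs at 3 h and 0.833, 0.209 and 0.102 CPM and 0 and 0.362 CPM at 5 h.

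Levels were also compared between ages within each cell type. The file names give each age a sequencing run code of its own, so age and sequencing run cannot be told apart, and only NBs and GMCs of the same age share a run code. In NBs, 0 members differed between 3 and 1.5 h by edgeR (0.0733% of all genes were higher and 0.0275% lower, 2 members were lower at an unadjusted p under 0.05, and DESeq2 called 0). From 1.5 to 5 h 1 member rose in NBs, Vha26 (0.68 ± 0.14, edgeR adjusted p = 0.00759, where 7.28% of all genes rose), and from 3 to 5 h 2 rose, Vha26 (0.75 ± 0.14, edgeR adjusted p = 0.00384) and VhaAC45 (0.78 ± 0.15, edgeR adjusted p = 0.00326, where 10.6% of all genes rose). Without NB replicate 1 of 5 h these counts were 3 and 6.

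In GMCs, 7 members were lower at 3 than at 1.5 h, where 1.64% of all genes were lower. They were Vha100-2 (-1.58 ± 0.27, edgeR adjusted p = 0.00918), VhaAC45 (-1.11 ± 0.17, edgeR adjusted p = 0.00397), Vha36-1, VhaPPA1-1, Vha26, Vha68-2 and VhaAC39-1. This count rested on single libraries: it was 0 without GMC replicate 1 and 1 without GMC replicate 2 of 3 h, 2 without any one GMC replicate of 1.5 h and 4 without NB replicate 2 of 1.5 h.

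Between 1.5 and 5 h, 11 members fell in GMCs (13.3% of all genes did). VhaAC45 had the smallest adjusted p (-1.81 ± 0.17, edgeR adjusted p = 2.89e-06), followed by VhaPPA1-1 (-1.68 ± 0.22, edgeR adjusted p = 4.84e-05) and Vha100-2 (-2.11 ± 0.28, edgeR adjusted p = 5.1e-05). The others were Vha26, Vha55, VhaM8.9, Vha16-1, Vha68-2, Vha13, Vha68-3 and Vha100-4.

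From 3 to 5 h, 5 members fell in GMCs (Vha68-3, VhaAC45, Vha100-4, VhaPPA1-2 and VhaPPA1-1) and 3 rose of the 24 tested, shares near the 13% and 17.2% of all genes. The 3 that rose were Vha100-1 (0.73 ± 0.21, edgeR adjusted p = 0.0151), Vha68-1 (1.02 ± 0.34, edgeR adjusted p = 0.0317) and VhaM9.7-c (1.25 ± 0.46, edgeR adjusted p = 0.0489). Each is a paralog of a gene that was lower in GMCs than in NBs at 5 h, but so are Vha68-3, Vha100-4 and VhaPPA1-2, which fell. The total of 8 was 1 without GMC replicate 1 of 3 h, 4 without replicate 2 of 3 h, 1 without replicate 1 of 5 h and 3 without replicate 2 of 5 h.

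The difference between GMCs and NBs itself was tested for a change with age. From 1.5 to 3 h it changed for 0 members and for 0 of all genes by edgeR, with 10 members at an unadjusted p under 0.05, all toward lower GMC levels, and 0 by DESeq2, where 683 of all genes had an unadjusted p under 0.05 and DESeq2 called 32. From 1.5 to 5 h, 9 members changed, all toward lower GMC levels, where 6.59% of all genes did. They were VhaAC45 (-2.16 ± 0.22), Vha26, Vha100-2 (-2.20 ± 0.35), VhaPPA1-1, Vha55, VhaM8.9 (-1.38 ± 0.33, edgeR adjusted p = 0.0128), Vha16-1, Vha68-3 and VhaM9.7-b. The count was 9 without NB replicate 1 of 5 h and 4 without GMC replicate 1 of 5 h. From 3 to 5 h, 3 changed the same way (2.35% of all genes did, and 1.7% the other way), VhaAC45 (-1.47 ± 0.23, edgeR adjusted p = 0.00499), Vha26 (-1.15 ± 0.23, edgeR adjusted p = 0.0135) and Vha68-3. That count was 1 without GMC replicate 1 of 3 h or of 5 h and 6 without NB replicate 1 of 3 h.

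Several patterns over age were found among the called members. Vha68-2, VhaSFD, VhaAC39-1, Vha100-2, Vha55 and Vha36-1, 6 genes from both sectors, were lower in GMCs at every age. Vha26 and VhaAC45 were higher at 1.5 h and lower at 5 h, and the turn was tested in the change of the difference above. A further 6 (Vha16-1, VhaPPA1-1, Vha44, VhaM9.7-a, Vha68-3 and Vha100-4) were called at 5 h alone, which for Vha16-1, VhaPPA1-1 and Vha68-3 came with a tested change from 1.5 h. Being called at 5 h alone depended on the setting for 4 of them: at 3 h Vha44 also passed with median-ratio scaling, scaling without CR43283, DESeq2 and the length trend removed (adjusted p = 0.0395, 0.0413, 0.0198 and 0.0336) and VhaPPA1-1 with DESeq2 (0.0473), and Vha68-3 and Vha100-4 passed at earlier ages as given above.

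Lists of genes chosen as linked to the pump gave mixed counts. Of 7 tested genes listed under V-ATPase assembly and regulation, 1 was lower and 1 higher in GMCs at 1.5 h, 1 was lower and 1 higher at 3 h, and 2 were lower at 5 h. The shares of all tested genes were 8.97%, 10.5% and 14% lower and 8.59%, 10.2% and 14.8% higher. Whether so short a list departs from these shares was not tested. The chloride channel gene ClC-a was the only one that was higher, at 1.5 h (2.13 ± 0.47, edgeR adjusted p = 0.00498) and at 3 h (2.25 ± 0.49, edgeR adjusted p = 0.00363). Whether it works with the pump in these cells was not tested. Mean levels of ClC-b, also listed, were 133 CPM in NBs and 128 CPM in GMCs at 1.5 h, and 111 and 97.0 CPM at 3 h. Those of ClC-c were 99.8 and 97.4 CPM at 1.5 h, and 70.6 and 71.4 CPM at 3 h. Rbcn-3B, part of the rabconnectin complex that reassembles the pump, was lower at 1.5 h (-0.84 ± 0.21, edgeR adjusted p = 0.0115) and did not pass at 3 h (-0.24) or 5 h (0.09). CG5969 was lower at 3 h (-1.33 ± 0.19, edgeR adjusted p = 0.000176) and 5 h (-0.60 ± 0.18, edgeR adjusted p = 0.0201). The median of the list was -0.05, -0.20 and 0.09 at 1.5, 3 and 5 h.

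Of 17 tested genes of the TORC1 platform, the nutrient-sensing complex that docks on the pump at the lysosome, 2, 3 and 5 were lower in GMCs at 1.5, 3 and 5 h, and 1 and 3 were higher at 3 and 5 h. Of all genes 8.97%, 10.5% and 14% were lower, and 10.2% and 14.8% were higher at 3 and 5 h. The GTPase RagC-D (-0.64, -1.40 and -1.39) and Nprl2, of the complex that switches the GTPases off (-1.05, -1.57 and -1.70), were lower at all ages. Of 17 lysosomal enzyme and membrane protein genes, 1 was lower and 2 higher at 3 h, and 2 were lower and 2 higher at 5 h, while at 1.5 h the smallest edgeR adjusted p was 0.242, for spin. These counts lay near or below the shares of all genes. The lysosomal thioesterase gene Ppt1 was lower at 3 h (-1.17 ± 0.26, edgeR adjusted p = 0.0039) and 5 h (-1.31 ± 0.26, edgeR adjusted p = 0.00104). Lamp1 was lower at 5 h (-0.79 ± 0.26, edgeR adjusted p = 0.0286). The lysosomal transporter gene spin was higher at 3 h (0.79 ± 0.20, edgeR adjusted p = 0.00881) and 5 h (0.76 ± 0.20, edgeR adjusted p = 0.00759).

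In the authors' deposited table, made with DESeq2, 2 members were higher and 7 lower in GMCs at 1.5 h, 0 higher and 12 lower at 3 h, and 0 higher and 18 lower at 5 h, by the adjusted p given there. An adjusted p was given for 26, 23 and 23 members at 1.5, 3 and 5 h. Of all genes with one, 2438 of 11670, 2845 of 10163 and 3603 of 10465 were under 0.05, in either direction.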

How the data were processed

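Sorted NBs and GMCs were profiled by RNA-seq. The deposited files hold raw read counts per gene, made with TopHat2 2.1.1, BWA 0.7.12, bedtools 2.26.0 and HTSeq 0.6.1 per the submitters' processing notes. The build, annotation and strand setting of the counting are not given in the sources at hand. Per the labels' protocols, random octamers in the index primer served as molecular barcodes, and whether the counts use them is not given either, so intervals cover counting error only. The authors' deposited comparison tables hold DESeq2 log2 fold changes with p-values, and mean normalised counts, which are a signal per gene scaled by size factors. Their symbols named the members, and their calls were counted once.

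Rows that name no gene were left out of library sizes: not-unique alignments were 21.7% to 33.4% of each library, no-feature reads 9.20% to 17.7% and ambiguous reads 1.42% to 2.09%. The 16 libraries were fitted in 6 groups with edgeR 4.0.16 in R 4.3.3 (quasi-likelihood test, TMM scaling, filter with a minimum count of 10 and total of 15, Benjamini-Hochberg adjustment over 10913 genes, 10 residual degrees of freedom), giving 12 comparisons. Genes removed by the filter numbered 5451. CPM were computed on TMM library sizes and divided by the union exon length of the Ensembl annotation where genes are compared. All 33 members were matched to it, at identical positions, 31 by ID and 2 by position. No reference sequence was at hand, so no sequences are shown. Every member called at any age, or most or second most abundant in its subunit, is described by library. Paralog shares were computed per library from CPM per kb. The alternatives were median-ratio scaling, scaling without CR43283, DESeq2 1.42.0, no filter, a fit of only the groups compared, a replicate block, removal of a gene-length trend, and leaving out each library, 23 in all. The edgeR fit was tested on simulated data. No replicates of a group agreed within sampling noise. The members, classes and gene lists were chosen with earlier results of these data known.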

Additional observations from a re-analysis of the deposited data

Results flagged for a closer look

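For 9 genes the difference between GMCs and NBs was itself different at 5 h and at 1.5 h, by an interaction term in the edgeR fit over all genes. The change of the log2 fold change, with its SE, was -2.16 ± 0.22 for VhaAC45 (edgeR adjusted p = 6.9e-05), -1.80 ± 0.22 for Vha26 (edgeR adjusted p = 0.000191) and -2.20 ± 0.35 for Vha100-2 (edgeR adjusted p = 0.000949). It was -1.54 ± 0.28 for VhaPPA1-1 (edgeR adjusted p = 0.00241), -0.84 ± 0.20 for Vha55 (edgeR adjusted p = 0.0102) and -1.38 ± 0.33 for VhaM8.9 (edgeR adjusted p = 0.0128). For the others it was -1.13 ± 0.30 for Vha16-1 (edgeR adjusted p = 0.0218), -3.09 ± 0.86 for Vha68-3 (edgeR adjusted p = 0.0268) and -1.19 ± 0.34 for VhaM9.7-b (edgeR adjusted p = 0.028). All 9 moved toward lower levels in GMCs, and VhaAC45, Vha26, Vha100-2 and VhaPPA1-1 passed in all 23 alternative fits. The other 5 did not pass without GMC replicate 1 of 5 h, which leaves a single GMC library of that age. The change was then -0.67 for Vha55 and -0.957 for Vha16-1. Vha16-1 was also lost with the length trend removed (edgeR adjusted p = 0.0536). Leaving out NB replicate 3, GMC replicate 1 or GMC replicate 2 of 1.5 h lost it too (edgeR adjusted p = 0.0559, 0.0502 and 0.0555). VhaM8.9, Vha68-3 and VhaM9.7-b were each lost in some other setting as well.

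Between 3 and 5 h the same term gave -1.47 ± 0.23 for VhaAC45 (edgeR adjusted p = 0.00499), -1.15 ± 0.23 for Vha26 (edgeR adjusted p = 0.0135) and -3.88 ± 0.88 for Vha68-3 (edgeR adjusted p = 0.0261). That of VhaAC45 was lost when only the groups compared were fitted (adjusted p = 0.0625), and those of Vha26 and Vha68-3 also without single GMC libraries. The file names give each age one run code, which NBs and GMCs of that age share.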

How the results depend on the processing

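Of 787 values of single genes under settings other than leaving out a library, 741 kept their direction and side of the threshold, 29 lost the threshold, 10 gained it and 7 changed sign. Of 1802 with a library left out, 1657 kept both, 130 lost the threshold, 4 gained it and 11 changed sign. All 7 sign changes were of Vha68-1 at 3 h, at 0.00 in the fit reported and -0.051 with median-ratio scaling, -0.047 with DESeq2, -0.10 with scaling without CR43283, -0.017 with no filter, -0.020 with only the groups compared, -0.014 with the replicate block and -0.055 with the length trend removed. With a library left out, signs changed for Vha14-1 (-0.32 to 0.17) and VhaM9.7-a (-0.42 to 0.23) at 1.5 h, Vha68-1 (-0.52 to 0.35), Vha68-3 (-0.81 to 0.25) and VhaAC39-2 (-3.56 to 0.49) at 3 h, and Vha36-3 (-0.014 to 1.48) at 5 h. None of these was called in the fit reported.

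Calls of GMCs against NBs that held in all 23 settings were 7 of 9 at 1.5 h, 6 of 10 at 3 h and 12 of 17 at 5 h. Counts of called members that moved by over 1.5 times were those for the change of the difference from 3 to 5 h (3, against 0 with only the groups compared and 1 with the replicate block), for NBs from 1.5 to 5 h (1, against 2 with DESeq2 and 3 with the block) and from 3 to 5 h (2, against 0 with only the groups compared), and for GMCs from 1.5 to 3 h (7, against 4 with no filter and 11 with only the groups compared). The 5 h median of V0 was -1.55 with only the groups compared and -1.53 with the block, and that of restricted genes -0.32 with only the groups compared. With a library left out, the counts ran from 6 to 11 at 3 h, 4 to 11 and 1 to 6 for the changes of the difference from 1.5 and from 3 to 5 h, 1 to 3 and 2 to 6 for NBs at 5 h against 1.5 and 3 h, 0 to 10 for GMCs at 3 against 1.5 h and 1 to 9 at 5 against 3 h. The V0 median ran from -0.51 to -0.024 at 1.5 h, -0.94 to -0.48 at 3 h and -1.56 to -1.13 at 5 h, the ubiquitous one from -1.01 to -0.50 at 3 h and the restricted one from -1.40 to -0.30 at 5 h. The cause was not tested. Removing the length trend moved the median of all genes at 1.5 h from 0.04 to -0.11.

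Same-numbered NB and GMC libraries did not deviate together (correlations of -0.16 to 0.08), and the fit reported did not pair them. At 3 and 5 h the 2 GMC libraries deviate from their mean by equal and opposite amounts. These correlations therefore cannot show whether the replicate numbers pair the samples. With the replicate block Vha36-1 at 1.5 h (adjusted p = 0.0573), Vha100-1 at 3 h (0.0832) and Vha44 at 5 h (0.118) did not pass, and Vha14-1 at 5 h did (0.0385). Depth limits what can be said of the 9 members that were not tested.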

Other observations

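Some paralogs of low level lie directly downstream of a broadly expressed one on the same strand. Vha68-3 starts 178 bases after Vha68-2, Vha100-4 517 bases after Vha100-2, and VhaPPA1-2 2052 bases after VhaPPA1-1. Per kb of exon, Vha68-3 stood at 1.57% to 2.11% of Vha68-2 in NBs and 1.98% to 2.42% in GMCs of 1.5 h, at 2.09% to 4.35% and 5.79% to 11.3% at 3 h, and at 1.27% to 4.23% and 0.20% to 0.56% at 5 h. Vha100-4 stood at 7.68% to 10.5% of Vha100-2 in NBs and 12.7% to 17.9% in GMCs of 1.5 h, at 10.4% to 19.4% and 19.1% to 54.8% at 3 h, and at 0.445% to 19.0% and 0% to 2.75% at 5 h.

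Within the D subunit, the share of Vha36-3 was 6.37 ± 1.54% in NBs and 13.8 ± 3.16% in GMCs of 1.5 h (SD over 3 libraries of each), 10.7 ± 4.35% and 21.5 ± 4.54% at 3 h, and 5.35 ± 4.34% and 15.4 ± 1.74% at 5 h (n = 3 NB and 2 GMC libraries at both ages). The NB share at 5 h was 10.2, 4.18 and 1.71% in replicates 1 to 3, with a mean of 2.94% without replicate 1. Within subunit e, the share of VhaM9.7-c was 10.5 ± 0.481% in NBs and 10.5 ± 2.44% in GMCs of 1.5 h, 9.42 ± 1.52% and 10.1 ± 2.06% at 3 h, and 8.52 ± 0.844% and 27.1 ± 2.23% at 5 h. Over all members and without TMM scaling, V-ATPase counts made up 0.333% of gene counts in NBs and 0.288% in GMCs of 1.5 h. At 5 h these unscaled shares were 0.396% and 0.133%. After TMM scaling, the sum over members at 1.5 h averaged 3058 ± 330 CPM (NBs) and 3111 ± 352 CPM (GMCs, SD over 3 libraries of each). These sums overlapped, so the lower GMC share at 1.5 h was not seen after scaling. The scaled sums at 5 h were 3515 ± 187 CPM (NBs, n = 3) and 1681 ± 156 CPM (GMCs, n = 2).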
